A study of Saccharomyces cerevisiae with 4 samples.

Results

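Messenger RNA of 10 budding yeast genes that let cells make sugar from ethanol, acetate and lactate was compared between a tor1 deletion strain and wild-type BY4741. The genes were taken by their systematic names, not by a threshold on measured values, but with earlier results of these data known. They were the enzyme genes ICL1 (YER065C), MLS1 (YNL117W), MDH2 (YOL126C), FBP1 (YLR377C) and PCK1 (YKR097W), the activator genes ADR1 (YDR216W), CAT8 (YMR280C) and SIP4 (YJL089W), and the transporter genes JEN1 (YKL217W) and SFC1 (YJR095W). All 10 were found among the 7127 features of the count files, and all 10 passed the filter on low counts, which left 6197 genes. The deletion strain carries kanMX4, a kanamycin-resistance cassette, in place of TOR1 (YJR066W), which encodes a kinase of TOR complex 1. Both strains are BY4741, a haploid MATa derivative of S288C with the alleles his3-1, leu2-0, met15-0 and ura3-0, so the wild type carries those mutations too. Cells grew in yeast nitrogen base with ammonium sulfate, dextrose, histidine, leucine, methionine and uracil, and were taken in the logarithmic stage; each title adds a time of 4 h. There were 2 libraries of the deletion and 2 of the wild type. The labels name neither separate cultures nor separate clones, so any p-value rests on library-to-library spread that could be purely technical.

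Depth was 8060480 and 10244377 counts in the deletion libraries and 14446057 and 9623963 in the wild-type libraries. TOR1 had 0 and 1 counts in the deletion and 635 and 357 in the wild type. LEU2 had no count in any library, and MET17 (met15) and URA3 had 0 in the deletion libraries and at most 3 and 1 in the wild-type libraries. The 5 MATa markers MFA1, MFA2, STE2, BAR1 and STE6 lay between 123 and 3369 CPM (counts per 1000000, after TMM scaling) in the deletion and between 107 and 2794 CPM in the wild type. The 4 MATalpha markers lay between 1.29 and 27.6 CPM in the deletion and between 3.86 and 26.2 CPM in the wild type, with SAG1 the highest of them in every library. Libraries correlated at 0.974 within the deletion and 0.992 within the wild type, in log2 CPM across genes. Each library pools the RNA of many cells, so less RNA per cell and fewer cells that express a gene cannot be told apart. Since CPM are relative to the library, a change in total RNA per cell would not be seen.

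The glyoxylate cycle bypasses the decarboxylating steps of the TCA cycle and turns acetyl-CoA into a net gain of oxaloacetate, from which gluconeogenesis builds sugar phosphates. In yeast, glucose represses these genes, through the repressor Mig1 among others. When glucose runs out, the kinase Snf1 and the zinc-finger activators Adr1, Cat8 and Sip4 switch them on, and Cat8 and Sip4 bind carbon source-responsive elements upstream of the target genes. In growing cells on dextrose most of the group is known to be kept low.

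The stretches that hold these elements are shown because they are what several of the genes have in common upstream. The element's core, CCNNNNNNCCG, was searched on both strands in the 600 bases before each start codon, and 7 of the 10 genes had at least 1 match. Each line gives 120 bases of the coding strand, 5′ to 3′, from RefSeq, R64 assembly, with matched bases in capitals; neighbouring matches that overlap run together. Each window was placed to hold the most matches, and for PCK1 it holds 2 of 3. The lines are ICL1 (chrV:287247-287366, minus strand), MLS1 (chrXIV:405827-405946, plus), MDH2 (chrXV:83271-83390, minus), FBP1 (chrXII:875186-875305, minus), PCK1 (chrXI:630576-630695, plus), SIP4 (chrX:265601-265720, plus) and SFC1 (chrX:609183-609302, plus).
ICL1: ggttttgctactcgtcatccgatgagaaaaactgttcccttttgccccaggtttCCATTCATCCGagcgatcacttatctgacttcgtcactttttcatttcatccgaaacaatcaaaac
MLS1: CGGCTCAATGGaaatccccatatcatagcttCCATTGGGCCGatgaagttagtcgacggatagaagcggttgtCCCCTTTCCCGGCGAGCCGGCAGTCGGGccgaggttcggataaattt
MDH2: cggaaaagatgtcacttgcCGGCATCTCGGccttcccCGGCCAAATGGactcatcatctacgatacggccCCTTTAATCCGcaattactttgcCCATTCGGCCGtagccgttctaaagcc
FBP1: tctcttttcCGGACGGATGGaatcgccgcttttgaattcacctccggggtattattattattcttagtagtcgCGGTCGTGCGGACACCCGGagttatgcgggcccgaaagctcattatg
PCK1: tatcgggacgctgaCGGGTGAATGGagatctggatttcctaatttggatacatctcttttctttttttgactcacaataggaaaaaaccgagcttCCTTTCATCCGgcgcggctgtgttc
SIP4: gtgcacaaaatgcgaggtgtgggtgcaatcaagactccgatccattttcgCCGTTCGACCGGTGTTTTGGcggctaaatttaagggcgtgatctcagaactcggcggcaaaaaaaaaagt
SFC1: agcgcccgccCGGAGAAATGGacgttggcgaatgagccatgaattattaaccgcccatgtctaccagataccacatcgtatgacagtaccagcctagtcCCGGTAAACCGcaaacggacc

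The group did not move as one. JEN1, ADR1, MDH2 and CAT8 rose in the deletion, SIP4 and FBP1 fell, and ICL1, MLS1, PCK1 and SFC1 did not pass. These 4 rises and 2 falls were called with the edgeR quasi-likelihood test at a Benjamini-Hochberg adjusted p below 0.05 over all tested genes. Of all 6197 tested genes, 26.9% were called higher and 24.9% lower, so a mix of both calls is not particular to these genes. The members' median log2 fold change of deletion over wild type was 0.45, against -0.02 over all tested genes. For 8 of the 10 members both deletion libraries lay on 1 side of both wild-type libraries, a share near the 78.9% of all tested genes. Each change that follows is a log2 ratio, deletion over wild type, given ± SE (n = 2 libraries each), and each adjusted p comes from the same edgeR test.

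**Figure D1:**
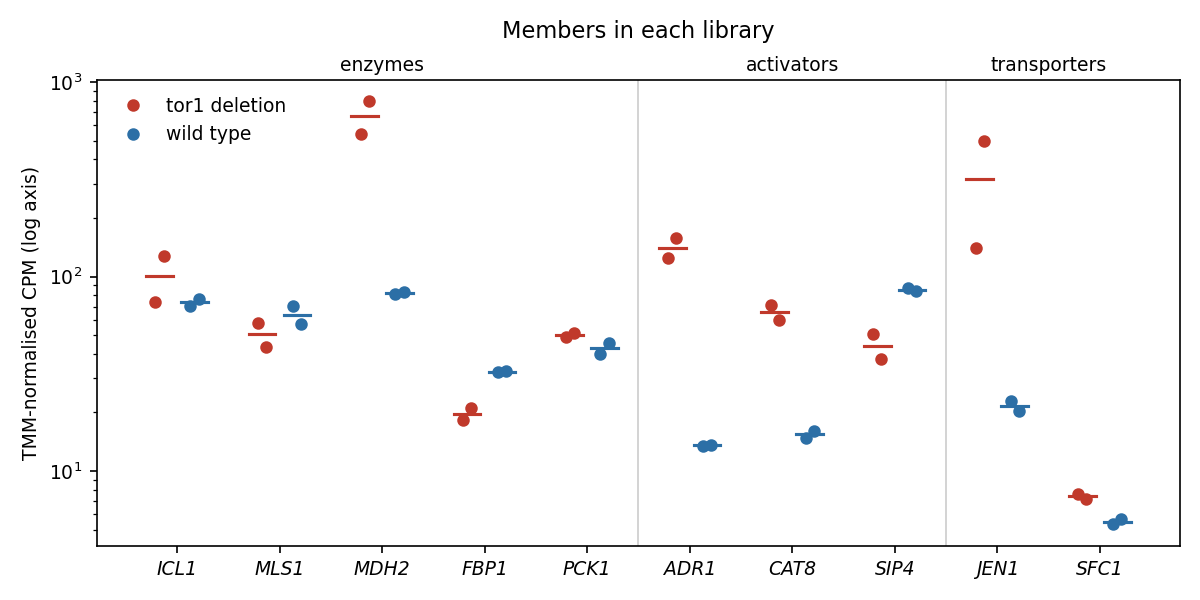
TMM-normalised CPM (log axis) of the 10 members, 1 point per library and a bar at the mean of 2, tor1 deletion in red and wild type in blue. Deletion libraries lie far above wild type for MDH2, ADR1, CAT8 and JEN1, and below it for FBP1 and SIP4. They lie among or close to wild type for MLS1, PCK1 and SFC1. For ICL1, deletion library 1 lies among wild type and deletion library 2 above it.

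Of the enzyme genes, the one shared by both pathways changed most. MDH2 (chromosome XV, 81787-82920, minus strand of R64) encodes the cytosolic malate dehydrogenase, which oxidises malate from the glyoxylate cycle and supplies oxaloacetate to gluconeogenesis. It had 3782 and 7543 counts (543 and 798 CPM) in the deletion libraries, against 1331 and 886 counts (81.2 and 83.3 CPM) in the wild-type libraries. Both deletion libraries were far above both wild-type ones, and the rise was 8.15-fold (3.03 ± 0.24, adjusted p = 0.000201). By rank of log2 fold change it stood at place 121 from the top.

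FBP1 (chromosome XII, 873746-874792, minus strand) encodes fructose bisphosphatase, the gluconeogenic enzyme that opposes phosphofructokinase. It had 127 and 200 counts (18.2 and 21.2 CPM) in the deletion, against 531 and 346 counts (32.4 and 32.5 CPM) in the wild type. Both deletion libraries lay below both wild-type libraries, which were nearly equal, and expression was 1.64-fold lower in the deletion (-0.72 ± 0.20, adjusted p = 0.023). The call ended when either wild-type library was left out, at a size of -0.71 each time (adjusted p = 0.214 without wild-type library 1 and 0.211 without wild-type library 2).

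PCK1 (chromosome XI, 631152-632801, plus strand) encodes phosphoenolpyruvate carboxykinase, which commits oxaloacetate to gluconeogenesis. It had 340 and 482 counts (48.8 and 51 CPM) in the deletion and 652 and 485 counts (39.8 and 45.6 CPM) in the wild type. The libraries did not overlap, but the difference of 0.23 ± 0.18 did not pass (adjusted p = 0.312). Its 95% interval, -0.19 to 0.65 on the log2 scale, leaves out the sizes seen for MDH2. With library totals alone or upper quartile factors the sign turned, to -0.10 and -0.17.

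The enzymes particular to the glyoxylate cycle did not pass either. ICL1 (chromosome V, 285241-286914, minus strand) encodes isocitrate lyase, which splits isocitrate into glyoxylate and succinate. It had 517 and 1208 counts (74.3 and 128 CPM) in the deletion, against 1158 and 815 counts (70.6 and 76.6 CPM) in the wild type. Deletion library 1 lay among the wild-type libraries and deletion library 2 above them, so the change of 0.46 ± 0.26 had an adjusted p of 0.181 and a 95% interval of -0.16 to 1.08. Without deletion library 1 the change was 0.81 and ICL1 was called higher, but that fit takes the deletion's spread from the wild type. Without deletion library 2 the change was 0.02.

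MLS1 (chromosome XIV, 406358-408022, plus strand) encodes malate synthase, which joins glyoxylate with acetyl-CoA to malate. It had 403 and 408 counts (57.9 and 43.2 CPM) in the deletion and 1150 and 609 counts (70.2 and 57.3 CPM) in the wild type. The strains overlapped, and the change was -0.34 ± 0.21 (adjusted p = 0.22, 95% interval -0.84 to 0.17). Scaling by library totals (-0.67) or upper quartile factors (-0.73) each gave a call of lower (adjusted p = 0.0305 and 0.0237). Leaving out deletion library 1 (-0.56) did so too, in a fit that takes the deletion's spread from the wild type. DAL7, the second malate synthase gene, matched MLS1 at 75.9% identity over 1571 bases, below the limit of 90% used here for copies that could exchange reads. None of the 10 genes had a copy above that limit or an overlapping gene in the annotation.

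Among the activator genes, ADR1 and CAT8 rose and SIP4 fell. ADR1 (chromosome IV, 895035-899006, plus strand) encodes the activator of ethanol, glycerol and fatty acid use. It had 873 and 1485 counts (125 and 157 CPM) in the deletion, against 222 and 145 counts (13.5 and 13.6 CPM) in the wild type. The deletion libraries were far above the nearly equal wild-type libraries, and the rise was 10.4-fold (3.38 ± 0.20, adjusted p = 7.42e-05), at place 97 from the top. CAT8 (chromosome XIII, 827028-831329, minus strand) encodes the activator of gluconeogenic and glyoxylate genes. It had 497 and 562 counts (71.4 and 59.5 CPM) in the deletion and 242 and 171 counts (14.8 and 16.1 CPM) in the wild type. Again the strains were well apart, with a 4.24-fold rise (2.08 ± 0.20, adjusted p = 0.000363).

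SIP4 (chromosome X, 265926-268415, plus strand) encodes a Snf1-interacting activator that binds the same elements as Cat8, and its own gene is a known target of Cat8. It had 352 and 355 counts (50.6 and 37.6 CPM) in the deletion, against 1428 and 897 counts (87.1 and 84.3 CPM) in the wild type. Both deletion libraries were below both wild-type libraries, and SIP4 was 1.95-fold lower (-0.96 ± 0.20, adjusted p = 0.00681). This call held in all 14 alternatives, with adjusted p of at most 0.0432.

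JEN1 (chromosome XI, 22234-24084, plus strand) encodes the plasma membrane carrier of lactate and pyruvate. It had 982 and 4695 counts (141 and 497 CPM) in the deletion and 374 and 216 counts (22.8 and 20.3 CPM) in the wild type. Every deletion library was above every wild-type library, and the fold change was 14.8 (3.89 ± 0.57, adjusted p = 0.00169), at place 71 from the top. The deletion libraries differed between themselves, library 2 being at 3.52 times the CPM of library 1, a ratio that 0.5% of tested genes reached. The change was 2.71 without deletion library 2, less than that of ADR1 (3.21) and about that of MDH2 (2.73) in the same fit. Without deletion library 1 it was 4.53.

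ICL1 and MDH2 were likewise higher in deletion library 2, at 1.72 and 1.47 times library 1, while SIP4 and MLS1 were at 0.743 and 0.746 times. The median over all tested genes was 0.99. What sets the deletion libraries apart was not tested.

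SFC1 (chromosome X, 609773-610741, plus strand) encodes the mitochondrial carrier that exchanges cytosolic succinate for fumarate. It had the lowest counts, 53 and 68 (7.61 and 7.19 CPM) in the deletion and 87 and 60 (5.31 and 5.64 CPM) in the wild type. The libraries did not overlap, but the change of 0.44 ± 0.28 did not pass (adjusted p = 0.22, 95% interval -0.22 to 1.09).

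**Figure D2:**
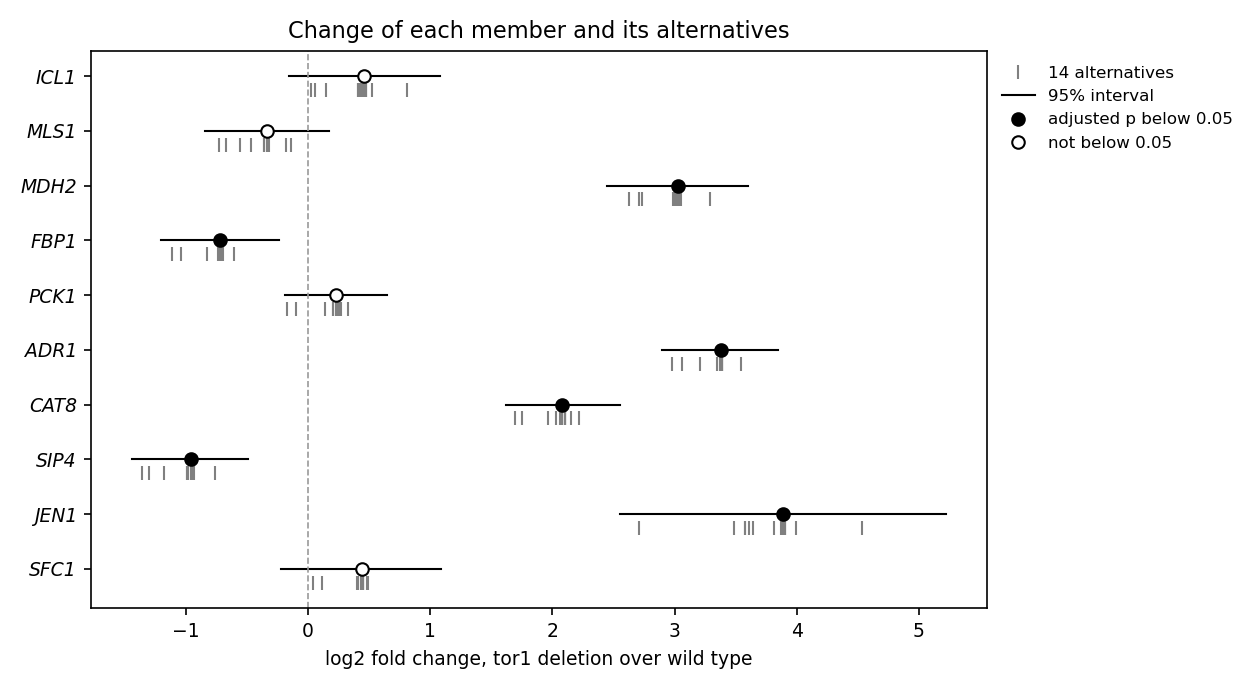
Log2 fold change of tor1 deletion over wild type for each member, with its 95% interval (line), whether the adjusted p was below 0.05 (filled) or not (open), and the values under 14 alternatives (grey ticks). Under every alternative MDH2, ADR1, CAT8 and JEN1 are at 1.69 or more and SIP4 and FBP1 at -0.61 or less, while PCK1 lies on both sides of 0.

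Levels were set beside each other per kilobase of coding length. In the deletion MDH2 led with 591 ± 159 CPM per kilobase (SD, n = 2), followed by JEN1 (172 ± 136), ICL1 (60.4), ADR1 (35.6), MLS1 (30.3), PCK1 (30.3), FBP1 (18.8), SIP4 (17.7), CAT8 (15.2) and SFC1 (7.64). In that order the libraries of neighbours overlapped for JEN1 with ICL1, ADR1 with MLS1, MLS1 with PCK1, FBP1 with SIP4, and SIP4 with CAT8. In the wild type the order was MDH2 (72.5 ± 1.32), ICL1 (44.0), MLS1 (38.3), SIP4 (34.4), FBP1 (31.0), PCK1 (25.9), JEN1 (11.6), SFC1 (5.65), CAT8 (3.58) and ADR1 (3.42). There the neighbours that overlapped were MLS1 with SIP4 and CAT8 with ADR1. ADR1 stood at percentile 44.7 of 5770 genes ranked per length in the deletion, against percentile 3.40 in the wild type. CAT8 stood at 25.3 in the deletion and 3.71 in the wild type. JEN1 stood at percentile 76.8 in the deletion and 18.7 in the wild type. The 5 enzyme genes ranged from percentile 30.5 (FBP1) to 91 (MDH2) in the deletion. In the wild type they ranged from 38.9 (PCK1) to 64.5 (MDH2), near the middle of all ranked genes. SIP4 stood at 28.9 in the deletion and 46.6 in the wild type, and SFC1 at 14 and 7.42.

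**Figure D3:**
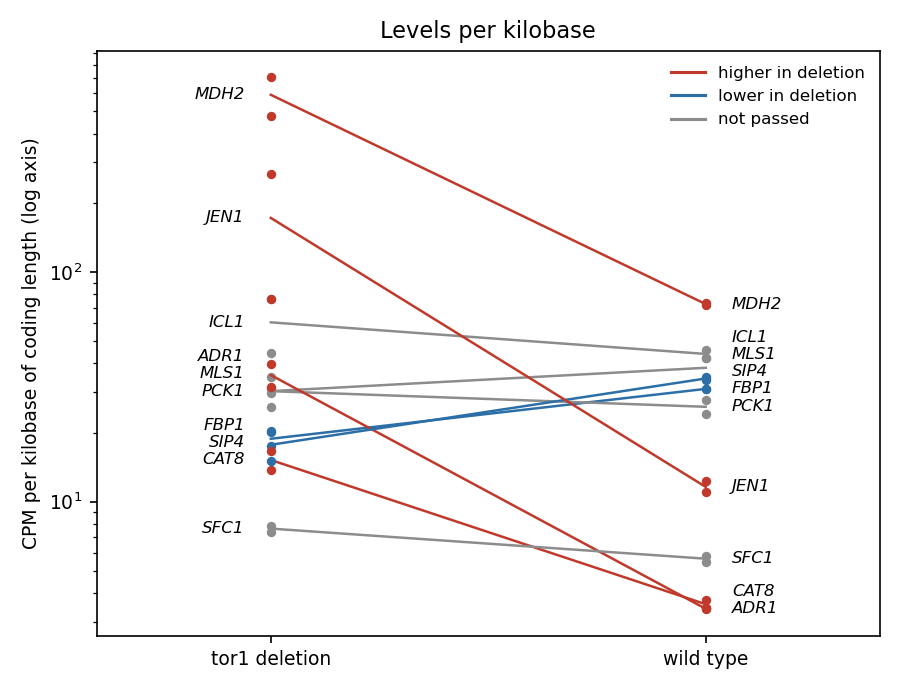
Level per kilobase of coding length (log axis) of each member in tor1 deletion (left) and wild type (right), with points for libraries and lines joining the means, coloured by call. JEN1 is next to MDH2 at the top in the deletion, and ADR1 and CAT8 are the lowest of the 10 in the wild type.

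Ratios of counts within a library do not depend on library scaling. They are not per length, so only their difference between strains is read, and the pairs were chosen after their values were seen. For each SIP4 read there were 2.48 and 4.18 ADR1 reads in the deletion libraries, against 0.155 and 0.162 in the wild-type libraries. The ratio of CAT8 to SIP4 was 1.41 and 1.58 in the deletion and 0.169 and 0.191 in the wild type. Both ratios were higher in the deletion libraries than in the wild-type libraries, without overlap. MDH2 over FBP1 was 29.8 and 37.7 in the deletion and 2.51 and 2.56 in the wild type. PCK1 over FBP1 was 2.68 and 2.41 in the deletion and 1.23 and 1.4 in the wild type, also without overlap. ICL1 over MLS1 was 1.28 and 2.96 in the deletion and 1.01 and 1.34 in the wild type, which overlapped.

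Among 20 listed genes for partner enzymes of the glyoxylate cycle and the acetyl-CoA supply, 13 rose, 2 fell and 5 missed the threshold. Their median log2 fold change was 1.19. For this list and those that follow, the shares over all tested genes were 26.9% higher and 24.9% lower. With upper quartile factors the number called higher over all genes fell from 1665 to 1110. It fell without either wild-type library too. The lists were chosen with earlier results of these data known. MDH1, mitochondrial malate dehydrogenase, averaged 508 ± 38.6 CPM in the deletion and 66.5 ± 0.734 CPM in the wild type (2.93 ± 0.18, adjusted p = 8.87e-05). CIT1, mitochondrial citrate synthase, averaged 729 ± 57 CPM in the deletion and 165 ± 7.91 CPM in the wild type. ACS1, the acetyl-CoA synthetase gene repressed by glucose, rose by 1.75 ± 0.17 and ATO2, an ammonium and acetate transporter family gene, by 1.52 ± 0.18. Among those that fell was DAL7 (-0.85 ± 0.22), whose call ended without either wild-type library (adjusted p = 0.117 and 0.0513).

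A list of 25 genes covered lactate, glycerol and pyruvate entry and the glycolytic steps that are reversible or opposed by FBP1 and PCK1. In it 13 rose, 1 fell and 11 missed the threshold (median 0.56). TDH1 (4.63 ± 0.26) and ENO1 (2.51 ± 0.24), isoforms of glyceraldehyde phosphate dehydrogenase and enolase, rose, although each has a near-identical paralog (TDH2 and ENO2) with which reads could be exchanged. PYK2, the minor pyruvate kinase, averaged 331 ± 40.9 CPM in the deletion and 39.2 ± 3.51 CPM in the wild type. CYB2, the lactate dehydrogenase that uses lactate taken up by Jen1, rose by 2.75 ± 0.21 (adjusted p = 0.00016). PFK1 and PFK2, the phosphofructokinase subunit genes that oppose FBP1, did not pass, and were named after their values were seen. PFK1 was at 0.45 ± 0.16, close to the threshold (adjusted p = 0.0525), and PFK2 at 0.23 ± 0.16 (adjusted p = 0.268). MAE1, the mitochondrial malic enzyme, fell by 1.04 ± 0.29 on the log2 scale.

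Of 21 other regulators of these genes, 13 rose, 1 fell and 7 were not called (median 0.72); 7 rose without either wild-type library and 8 with upper quartile factors. The largest change was that of MIG1, the glucose repressor, with 386 ± 52.1 CPM in the deletion and 28.9 ± 0.253 CPM in the wild type (3.74 ± 0.20, adjusted p = 6.29e-05). HAP4, activating subunit of the respiratory gene activator, rose by 2.94 ± 0.18, MIG2, a second repressor, by 2.29 ± 0.18, and SIP2, a beta subunit of the Snf1 complex, by 1.89 ± 0.18. HAP4 belongs to the activators and MIG1 and MIG2 to the repressors of glucose-repressed genes, and all of them rose. ERT1, a regulator of the switch to gluconeogenesis, was lower at -0.83 ± 0.26, a call that ended without either wild-type library (adjusted p = 0.248 and 0.145).

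Of 14 other genes known as targets of Adr1, 12 rose and 1 fell (median 1.10). CTA1, the peroxisomal catalase gene and the only one not called, was at 0.17 ± 0.19, and is named after its value was seen. With upper quartile factors, and without wild-type library 1, 7 rose. ALD4, mitochondrial aldehyde dehydrogenase, averaged 2175 ± 544 CPM in the deletion and 58.0 ± 0.57 CPM in the wild type (5.23 ± 0.29). GUT1, glycerol kinase, and POT1, the peroxisomal thiolase, rose by 2.87 ± 0.33 and 2.58 ± 0.33, each higher in deletion library 2 than in deletion library 1; ACS1 is on this list too. ADH2, the alcohol dehydrogenase that oxidises ethanol and the best-known Adr1 target, was lower, with 69.4 ± 14.8 CPM in the deletion and 114 ± 12.4 CPM in the wild type (-0.72 ± 0.21, adjusted p = 0.0242). That call ended without either wild-type library (adjusted p = 0.224 and 0.0753).

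The GID ubiquitin ligase marks Fbp1, Pck1, Mdh2 and Icl1 proteins for degradation when glucose returns. In its list of 9, 7 rose and 2 were not called (median 1.53). UBC8, the ubiquitin-conjugating enzyme of this ligase, averaged 888 ± 207 CPM in the deletion and 119 ± 2.89 CPM in the wild type (2.90 ± 0.23). FYV10, a catalytic subunit gene, GID10, a substrate receptor gene, and GID8, a scaffold subunit gene, rose by 2.49 ± 0.22, 1.81 ± 0.23 and 1.46 ± 0.19. Protein was not measured.

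**Figure D4:**
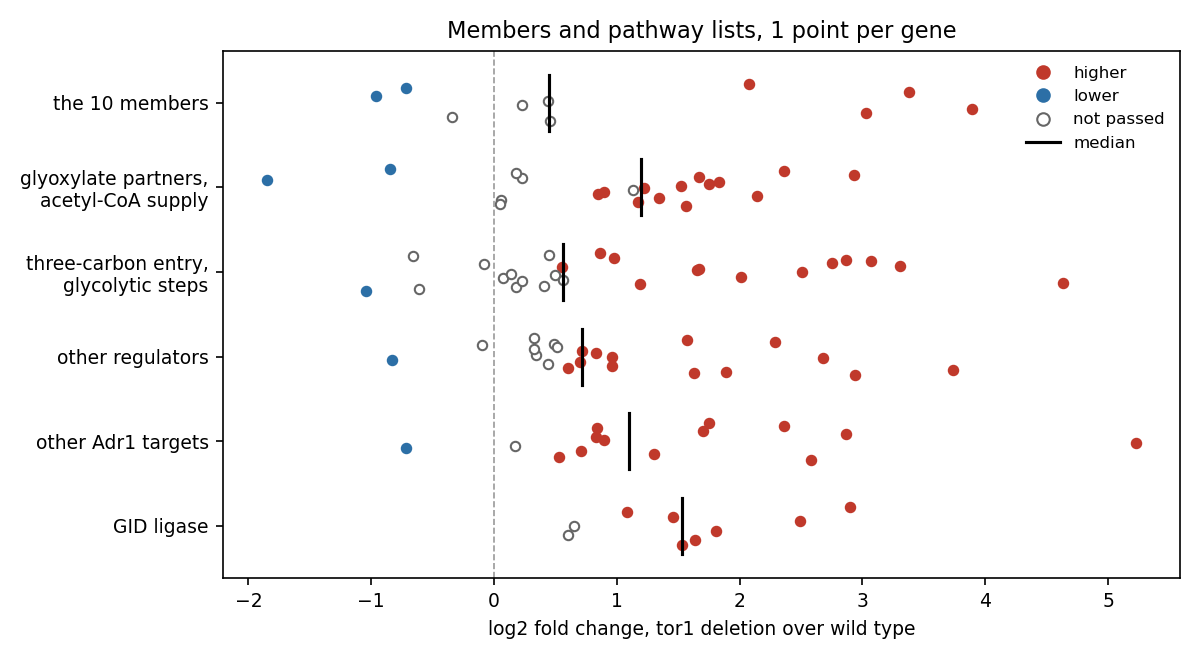
Log2 fold change of tor1 deletion over wild type, 1 point per gene, for the 10 members and the 5 pathway lists, coloured by call, with the median as a black bar. Every list has its median above 0, between 0.45 for the members and 1.53 for the GID ligase, and FBP1 and SIP4 lie with the few genes below 0.

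The tested genes nearest to a member in pattern were found by the distance of log2 CPM, centred on each gene's mean, over 4 libraries, a number at which many genes look alike. Nearest to ADR1 were TPS1, a trehalose synthesis gene, YNL234W and SDH1, a succinate dehydrogenase subunit gene, at distances of 0.0551 to 0.14. Nearest to CAT8 were YOR019W, PRB1, a vacuolar protease gene, and PET494, a translational activator gene of mitochondria. Nearest to MDH2 were UBC8, BDH1, a butanediol dehydrogenase gene, and CPP3. JEN1 had its nearest genes farther off, GIP2 at 0.319, YMR206W at 0.556 and LEE1 at 0.625. GIP2, a regulatory subunit gene of a protein phosphatase, had 55.4 and 185 CPM in the deletion and 9.52 and 10.1 CPM in the wild type. Its gap between the deletion libraries follows from its choice by likeness to JEN1. Nearest to FBP1 were TRM2, STE23 and SEC39, and nearest to SIP4 were SMC5, LDO45 and IRC8. All of these lose their call of lower without either wild-type library, and LDO45 overlaps LDO16 and its counts are uncertain.

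Upstream letters were compared with the calls as a description only. The core CCNNNNNNCCG was found in the 600-base windows of 24.7% of 5999 nuclear protein-coding genes and in 7 of the 10 members, a share that is no independent result because the element was defined in promoters of genes of this kind. Of the 7, MDH2 rose, FBP1 and SIP4 fell, and ICL1, MLS1, PCK1 and SFC1 did not pass. MLS1 had the most matches with 6, partly overlapping one another, then MDH2 with 4, FBP1 and PCK1 with 3 each, SIP4 and SFC1 with 2 each and ICL1 with 1. The Adr1 letters TTGGAG or TTGGGG occurred in the windows of 2 of the 10 members, MDH2 and JEN1, and in 32.1% of all genes. The Mig1 letters GCGGGG or GTGGGG or CCGGGG or CTGGGG occurred before ICL1, MLS1, MDH2, FBP1, PCK1 and CAT8, and in 27.8% of all genes. The letters AGGGG, bound by the stress activators Msn2 and Msn4, occurred before MLS1, MDH2, CAT8, JEN1 and SFC1, and in 39.7% of all genes. In MDH2 a core match overlapped a Mig1 match and another an AGGGG match, and in MLS1 a core match overlapped an AGGGG match. No searched letters were found before ADR1. The windows of ADR1 and FBP1 reach into the next annotated gene, which lies 532 and 583 bases upstream.

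**Figure D5:**
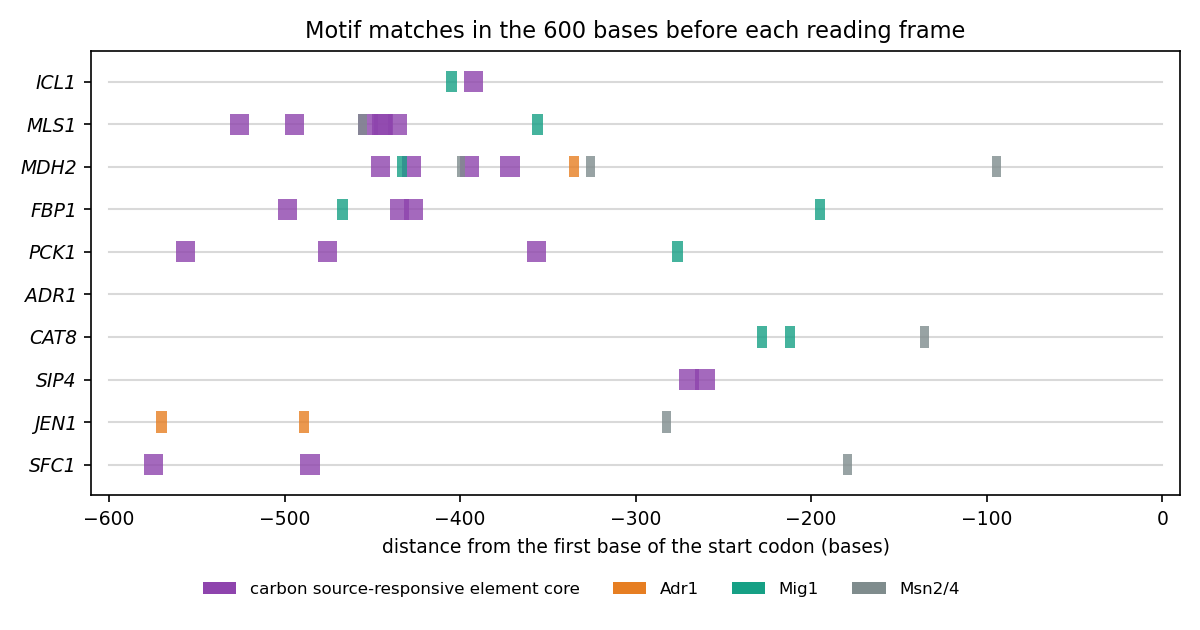
Positions of motif matches in the 600 bases before the start codon of each member (x axis, bases from the start codon), coloured by motif. Core matches of the carbon source-responsive element lie between -580 and -256 in 7 genes, and MDH2 is the only member with all 4 kinds of match.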

How the data were processed

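Poly(A) RNA went into Ion Torrent libraries, per the labels' protocols. The authors deposited a file of raw counts for every library; the submitters' processing notes name FastQC, Subread, featureCounts and sacCer3, with no version. A strand setting was not given in the sources used here, so reads from an antisense partner could be included. A second deposited table from the authors holds log10 values for 6519 genes, which come from 1 plus the count over a fixed number for each library; these entered only as an alternative, as log2, tested with limma 3.58.1. Every row of the count files names a feature.

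Strains were compared with the edgeR 4.0.16 quasi-likelihood test (R 4.3.3), group as the only term, TMM factors, filterByExpr and Benjamini-Hochberg adjustment over 6197 genes at a threshold of 0.05. SE came from the log2 fold change and the root of its F, and the 95% intervals use the t distribution of the fit. The test was tested on simulated data, with a much smaller share of changed genes than was called here. A count of 0 allows up to 3 counts, or 0.183 to 0.431 CPM, which covers counting error only. Names, coding lengths and sequences came from RefSeq's R64 annotation, which matched 6047 features by systematic name and 41 by symbol. Copies were genes matching at 90% identity over 50% of the shorter gene (blastn 2.17.0).

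Members, lists and motifs were chosen with earlier results of these data known. Named genes were all members, the 4 smallest p of each list, listed genes called against the majority of their list, and the 3 nearest in pattern to each called member; others are said to be chosen later. The values of 1 gene that this rule names are not reported here. Alternatives were edgeR's likelihood ratio test, DESeq2 1.42.0, limma-voom, other scalings and filters, a replicate block, the authors' table and leaving out each library.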

Additional observations from a re-analysis of the deposited data

How the results depend on the processing

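Under all 14 alternatives the rises of MDH2, ADR1, CAT8 and JEN1 and the fall of SIP4 kept their call. The number of members called higher was 4 in the alternatives that kept all libraries and ranged from 4 to 5 with a library left out; the number called lower ranged from 1 to 3 with a library left out, the 1 being SIP4 without either wild-type library. The number called lower was 3 with library totals or upper quartile factors, where MLS1 was added. It was 2 in the other alternatives that kept all libraries. PCK1 reversed to -0.10 (library totals) and -0.17 (upper quartile), scalings that moved the median of all genes by -0.33 and -0.39. Over all genes, 1665 were higher and 1543 lower; scaling by library totals gave 1179 higher and 2328 lower, upper quartile factors gave 1110 and 2508, DESeq2 gave 1649 and 1455, and leaving out 1 library gave 1045 to 2281 higher and 915 to 2179 lower. Leaving out a library leaves 1 in its strain, which is assumed to vary like the other strain. With the replicate block 4 members were higher and 2 lower, with 1649 and 1667 genes over all, and no call of a member changed; same-numbered libraries did not deviate together (correlation -0.0659 across genes), so the numbers are not taken as pairs. With 53 to 87 counts, SFC1 is the member whose precision depth limits most.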

Other observations

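The annotated genes next upstream of the members were also read, with the same edgeR test, because several share an intergenic stretch with a member; the ones given were chosen after their values were seen. GPI12, a GPI anchor synthesis gene divergent from CAT8 across 1009 bases, was higher in the deletion (1.26 ± 0.20, adjusted p = 0.00216), as CAT8 was. TRM13, a tRNA methyltransferase gene divergent from MDH2 across 913 bases, was lower (-0.69 ± 0.17, adjusted p = 0.0131), whereas MDH2 was higher. DPB11, a replication gene divergent from SIP4 across 874 bases, did not pass (-0.60 ± 0.23, adjusted p = 0.06), and DCP2, an mRNA decapping gene divergent from MLS1 across 793 bases, did not pass either (-0.29 ± 0.17). On the same strand, RPL43B, a ribosomal protein gene upstream of SFC1 with a close paralog (RPL43A) that could exchange reads, was lower (-1.73 ± 0.23, adjusted p = 0.00129), and ESL2, upstream of PCK1, was higher (1.18 ± 0.18, adjusted p = 0.00222).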
